A study of Mus musculus with 4 samples.

Results

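Most of the genes described here encode parts of the axoneme, the microtubule core of the sperm tail. They were taken from the deposited expression table by symbol. All genes named Dnah, Dnaic, Dnali or Dnal with a number, Tekt with a number, Rsph, or Spag with a number were included, 41 of 24426 genes. The symbol rule holds no expression value, but the set was chosen with earlier results of these data known. RNA was measured in male C57BL/6 mouse germ cells with 1 library for each of 4 stages. Spermatogonia (SG) were pooled from 30 mice of 7 days. Spermatocytes came from 5 mice of 17 days and were divided into preleptotene (PlpSC), leptotene or zygotene (L/ZSC), and pachytene cells (PaSC). All cells were dispersed with enzymes and kept in culture for some hours so that Sertoli cells could adhere. They were then separated by size in a gravity sedimentation (STA-PUT) chamber, so each fraction is enriched and not pure. The paper reports that it judged the purity of the fractions by cell size, morphology and marker levels.

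In the axoneme, dynein arms on the outer doublet microtubules slide one doublet against the next and so bend the tail. Radial spokes connect each doublet with the central pair of microtubules and transmit signals to the arms. Tektins are filamentous proteins inside the doublets. The same structures drive motile cilia of the airways, brain ventricles and efferent ducts, in part with other members of the same families. In the mouse testis many axonemal transcripts appear in spermatocytes, before the tail grows out in spermatids.

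The values are FPKM, fragments scaled by transcript length and by the mapped fragments of the library, so levels of different genes can be set side by side. The deposited table gives no read counts, the depth of the libraries is unknown, and no difference has a replicate check or a p-value. A gene is called higher or lower where the plain ratio of FPKM passed 1.5, and differences are given on the log2(FPKM + 0.5) scale. Sums of FPKM were between 858436 and 2571630, with the highest in labelled PlpSC.

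The stage labels need caution. Among the lncRNAs that the study lists by stage, 653 reached 0.5 FPKM both in the column labelled SG and in the listed PaSC values. All 653 ratios lay within 1% of their median, so the column labelled SG is a scaled copy of the listed PaSC values for these genes. Only the PlpSC column held the listed values of its own stage, for all 642 lncRNAs at 0.5 FPKM or more. Marker genes also went against the labels. Ldhc, the lactate dehydrogenase of germ cells from pachytene on, was at 3409 FPKM under the SG label, 354 under PlpSC, 5468 under L/ZSC and 5721 under PaSC. Of 11 spermatogonial markers that reached 0.5 FPKM, 9 were highest in labelled PlpSC (41.3% of all genes) and none in labelled SG (16.3%). All 16 spermatid markers were highest in labelled PaSC (27.4% of all genes), where they summed to 14354 FPKM, against 986 FPKM in labelled L/ZSC. Of these sums Odf2 alone was 1263 and 760 FPKM. Each library is therefore named by its label only, and comparisons that leave out labelled SG are given beside those that use it. The order of stages, where used below, means the order of the labels SG, PlpSC, L/ZSC and PaSC.

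Nearly all of these genes were lowest in the library labelled PlpSC, with a median difference of -2.77 on the log2 scale from labelled SG. Of the 41 genes, 36 reached 0.5 FPKM in at least 1 library, and 33 of these 36 had their lowest value in labelled PlpSC (33.8% of all 16652 genes that reached 0.5 FPKM did). The median level of the 36 genes was 44.3 FPKM under the SG label, 5.68 under PlpSC, 56.3 under L/ZSC and 74.4 under PaSC. Over all genes the medians were 7.64, 7.58, 5.13 and 6.15 FPKM in the same order. In labelled PaSC 88.7% of all genes lay below the median of these genes, and in labelled PlpSC 44.6% did.

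**Figure D1:**
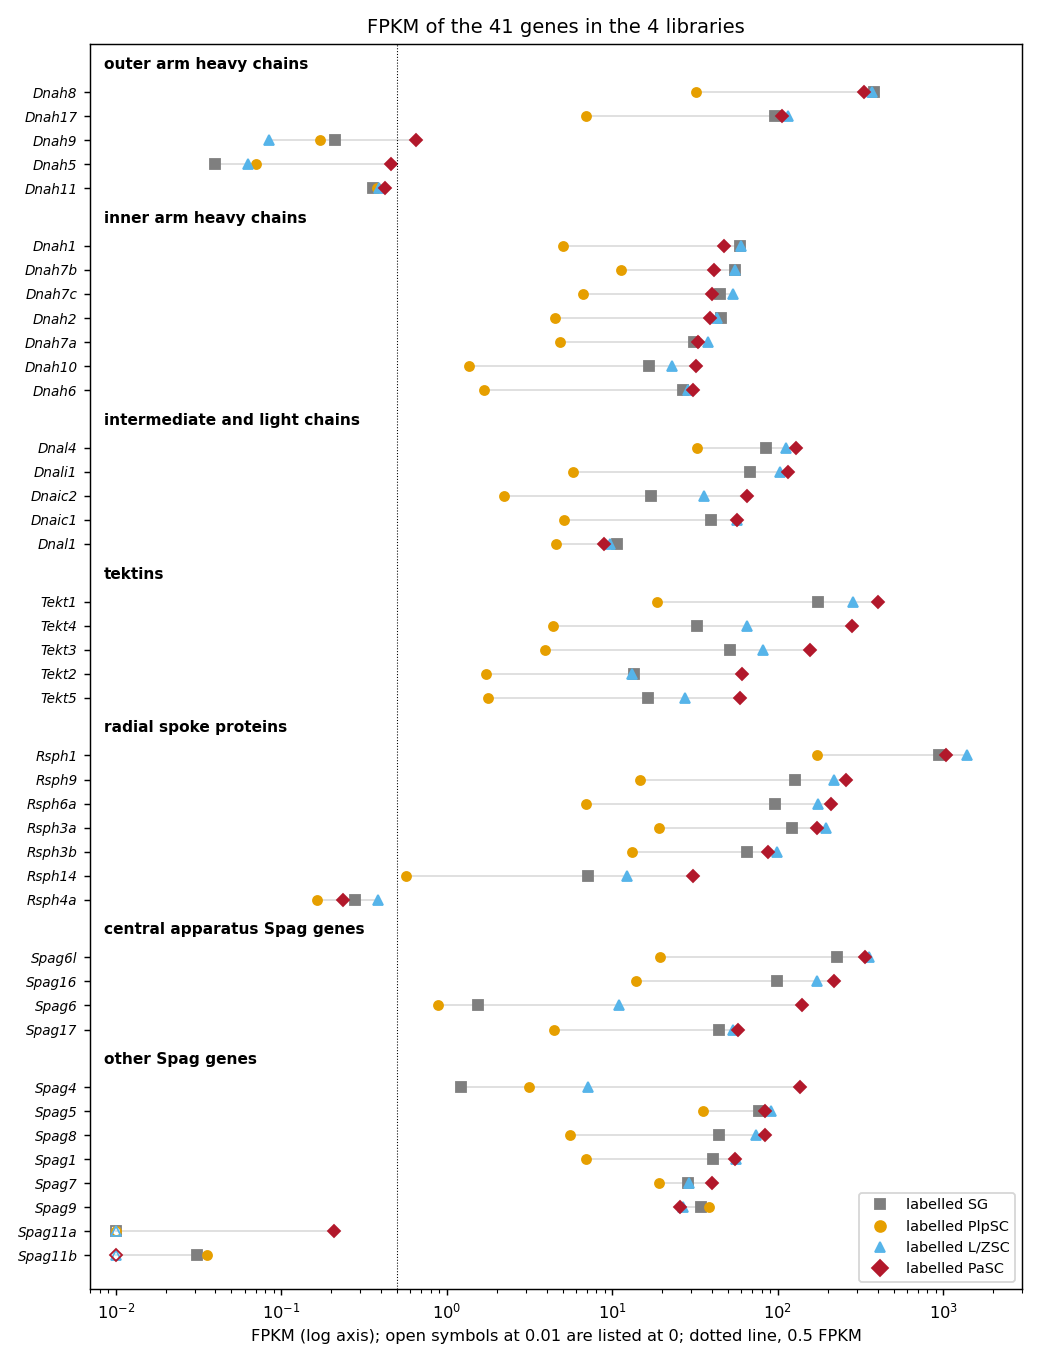
FPKM of each of the 41 genes in the 4 libraries, on a log axis, with genes grouped by their place in the axoneme and 1 symbol per library. The circles of labelled PlpSC stand at the left end for 33 of the 36 genes that reached 0.5 FPKM, while Dnah5, Dnah11, Rsph4a, Spag11a and Spag11b stay left of the dotted line in every library.

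In labelled PlpSC 33 of the 36 genes were more than 1.5 times lower than in labelled SG (30.9% of all genes were), and 1 was higher (30.1% of all genes). The median difference was -2.77, against 0 for all genes. In labelled L/ZSC 34 were higher than in labelled PlpSC (30.7% of all genes) and 1 was lower (45.4%), with a median of 3.39 against -0.29 for all genes. In labelled PaSC 9 were higher than in labelled L/ZSC (24.9% of all genes) and none of the 36 was lower (24.6%). The share of higher genes at this step, 25% of the 36, is close to that of all genes. The median was 0.13, against -0.10 for all genes. Set against labelled SG, 17 were higher in labelled PaSC (24.7% of all genes) and none was lower (39.9%), with a median of 0.54 against -0.24. Dnah9 is among the 9 and the 17 and reached 0.5 FPKM only in labelled PaSC. With a minimum of 1 FPKM the counts were 8 and 16. The background depends on the scaling of the libraries. Equal FPKM totals let the highest genes set the scale, and the 10 highest held 68.1% of the sum in labelled PlpSC. In the other libraries they held 23.8% to 42.8%. With short RNAs left out of the sum, all genes had medians of 0.06 for labelled PlpSC minus labelled SG and -0.49 for labelled L/ZSC minus labelled PlpSC. With median ratio scaling these were 0.06 and -0.22. With the 4 libraries set to equal FPKM totals, the share of all genes lower in labelled PlpSC was 70.3% against labelled SG, 52.7% were higher in labelled L/ZSC than in labelled PlpSC (35 of the 36 genes were lower and higher at these steps), and 34.6% were higher in labelled PaSC than in labelled L/ZSC, where 15 of the 36 genes then were.

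**Figure D2:**
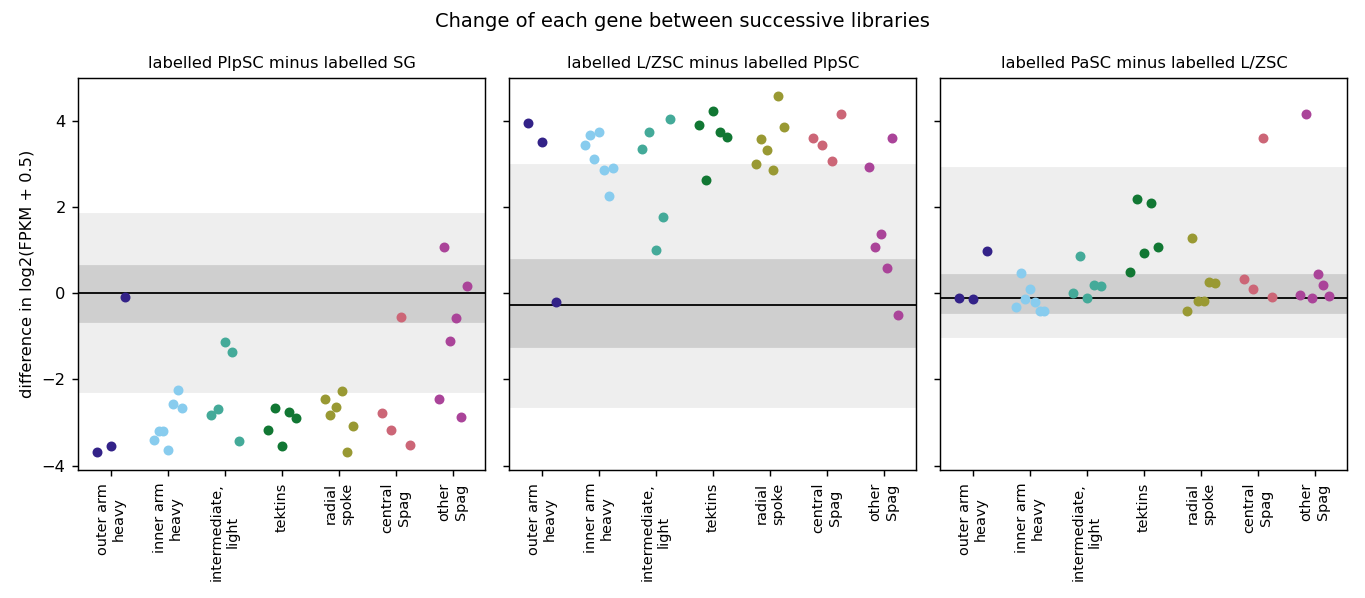
Difference in log2(FPKM + 0.5) of each of the 36 genes between successive libraries, by group, with 1 point per gene. The dark band is the interquartile range of all 16652 genes, the light band reaches from the 5th to the 95th percentile, and the line is their median. Most points lie under the bands for labelled PlpSC minus labelled SG and over them for labelled L/ZSC minus labelled PlpSC, and tektins stand highest as a group in labelled PaSC minus labelled L/ZSC.

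The outer arm heavy chains divided into genes with high levels and genes near 0. These chains are the motor subunits of the outer dynein arm. Dnah8 (chromosome 17, 30626935 to 30875762, GRCm38) was at 379 FPKM under the SG label, 32.1 under PlpSC, 369 under L/ZSC and 333 under PaSC. Dnah17 (chromosome 11, 118021723 to 118130719) was at 95.4, 6.91, 115 and 106.5 FPKM in the same order. In humans, loss of either gene gives sperm tail defects. Labelled SG, L/ZSC and PaSC stood close together for both genes, and labelled PlpSC was lower than labelled SG by 11.8 times for Dnah8 and by 13.8 times for Dnah17. Dnah8 was 3.13 to 4.65 times as high as Dnah17, with the largest ratio in labelled PlpSC.

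Dnah5, Dnah9 and Dnah11 are the outer arm heavy chains of airway and nodal cilia. Dnah5 was at 0.040 FPKM under the SG label, 0.071 under PlpSC, 0.063 under L/ZSC and 0.457 under PaSC. Dnah11 stayed between 0.358 and 0.423 FPKM. Dnah9 was at 0.212, 0.172, 0.084 and 0.655 FPKM in the order of stages, and it passed the minimum of 0.5 FPKM only through labelled PaSC. At such levels a value may stand on few fragments, and the single gene called lower in labelled L/ZSC than in labelled PlpSC was Dnah9. Its ratio of 0.488 at that step turned to 1.12 with the libraries set to equal FPKM totals.

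Radial spoke heads showed the same division. Rsph6a, a spoke head protein of sperm, was at 95.5 FPKM under the SG label, 6.92 under PlpSC, 176 under L/ZSC and 209 under PaSC. Its relative Rsph4a, a spoke head protein of motile cilia, was at 0.277, 0.164, 0.385 and 0.234 FPKM. Rsph4a therefore stayed below 0.5 FPKM in all 4 libraries.

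**Figure D3:**
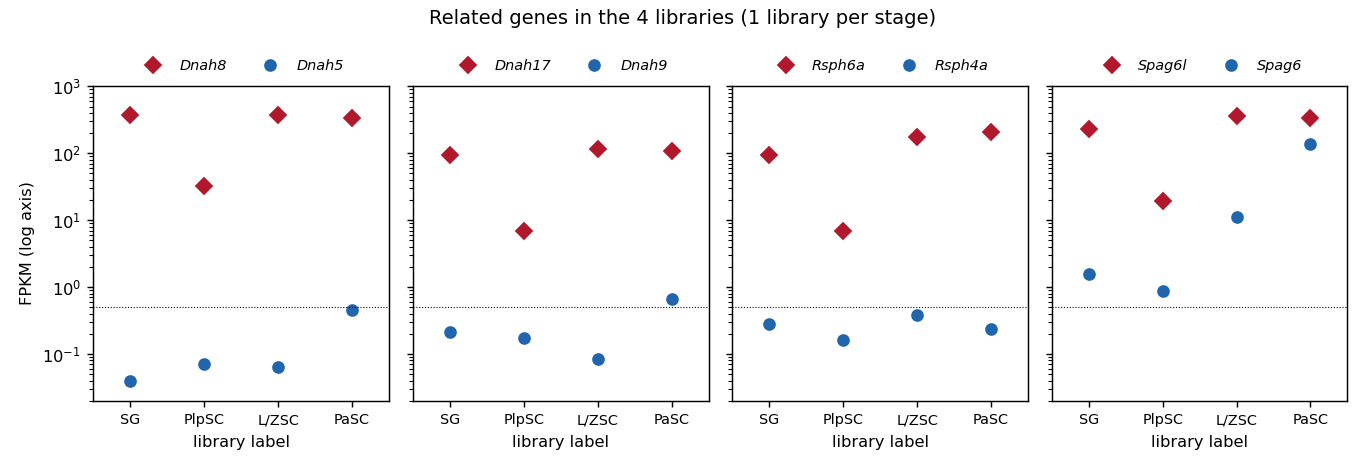
FPKM of 4 pairs of related genes by library label, on a log axis with a dotted line at 0.5 FPKM. The diamonds of Dnah8, Dnah17 and Rsph6a lie between 6.91 and 379 FPKM and the circles of Dnah5, Dnah9 and Rsph4a between 0.040 and 0.655 FPKM, while Spag6 reaches 139 FPKM in labelled PaSC.

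Genes of multiciliated cells, which line the efferent ducts, and of the duct epithelium were also measured. Of the 11 genes in this list, 5 reached 0.5 FPKM. The highest was Ccdc67, which acts in centriole amplification, at 4.72 FPKM under the SG label, 0.976 under PlpSC, 11.7 under L/ZSC and 59.3 under PaSC. Krt8, a keratin of simple epithelia and so not particular to multiciliated cells, was at 4.72, 0.566, 8.12 and 9.74 FPKM. Cyp2s1 fell in the order of the labels, at 4.76, 1.86, 0.818 and 0.016 FPKM. Of the 5 genes, 4 were highest in labelled PaSC (27.4% of all genes) and 1, Cyp2s1, in labelled SG (16.3%). Sntn, a protein of cilia tips, was listed at 0 in all 4 libraries. The regulators Mcidas and Gmnc stayed at or below 0.137 and 0.079 FPKM. Foxj1, which acts in motile cilia and is also expressed in spermatids, was at 2.57, 1.75, 4.92 and 43.9 FPKM in the order of stages. The 11 genes summed to 20.6 FPKM under the SG label, 7.02 under PlpSC, 27.8 under L/ZSC and 117 under PaSC. Ccdc67 and Foxj1 made up most of the sum in labelled PaSC, at 59.3 and 43.9 FPKM. The part of multiciliated or duct cells in the results was not tested.

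The 7 inner arm heavy chains in the table shared the level pattern of Dnah8. These motors shape the bend of the tail. Dnah1, required for sperm motility in mice and humans, was at 58.7 FPKM under the SG label, 5.06 under PlpSC, 59.7 under L/ZSC and 47.4 under PaSC. Dnah2, a heavy chain of the double-headed inner arm, was at 45.1, 4.48, 42.6 and 38.8 FPKM. Its partner in that arm, Dnah10, was at 16.6, 1.35, 22.9 and 32.0 FPKM. Dnah10 was the only inner arm heavy chain more than 1.5 times higher in labelled PaSC than in labelled SG, at 1.93 times. Dnah6 was at 26.8, 1.69, 28.7 and 30.7 FPKM, the largest difference of the group between labelled L/ZSC and labelled PlpSC, 17.1 times. None of the 7 passed 1.5 times between labelled PaSC and labelled L/ZSC, where their ratios were between 0.744 and 1.40.

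Dnah7a, Dnah7b and Dnah7c are close copies on chromosome 1, so fragments may be shared between them and their single values are uncertain. Dnah7b was at 55.2, 11.2, 55.1 and 41.02 FPKM, Dnah7c at 44.7, 6.68, 53.4 and 40.0 FPKM, and Dnah7a at 31.1, 4.82, 37.9 and 32.8 FPKM in the order of stages. The difference between labelled L/ZSC and labelled PlpSC was smaller in these copies than in the other inner arm heavy chains, at 4.91 times for Dnah7b, 7.85 for Dnah7a and 8.001 for Dnah7c, against 9.51 to 17.1 times for the rest.

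Intermediate and light chains hold the arms on the doublet and regulate the motors. Dnaic1, an intermediate chain of the outer arm, was at 39.5 FPKM under the SG label, 5.13 under PlpSC, 56.5 under L/ZSC and 56.9 under PaSC. Its partner Dnaic2 was at 17.0, 2.22, 35.6 and 65.3 FPKM, so that it stood lower than Dnaic1 in every library but labelled PaSC. The inner arm light intermediate chain gene Dnali1 was at 67.8, 5.80, 103 and 115 FPKM.

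The light chain genes Dnal1 and Dnal4 differed less between libraries. Dnal4 was at 84.6 FPKM under the SG label, 32.5 under PlpSC, 112 under L/ZSC and 129 under PaSC. Dnal1, an outer arm light chain that binds the motor domain, was at 10.6, 4.56, 9.68 and 8.88 FPKM. Labelled L/ZSC was 3.44 times labelled PlpSC for Dnal4 and 2.12 times for Dnal1, against 11.02 to 17.7 times for Dnaic1, Dnaic2 and Dnali1.

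Among the groups of the 36 genes, the tektins had the most genes above labelled L/ZSC in labelled PaSC, 4 of 5 (24.9% of all genes). Outside the set, 7 of 10 further radial spoke subunits were higher at this step as well. Tekt4 (chromosome 17, 25454549 to 25476602) was at 32.4 FPKM under the SG label, 4.36 under PlpSC, 64.8 under L/ZSC and 279 under PaSC. Tekt2 (chromosome 4, 126322121 to 126325688) was at 13.5, 1.71, 13.1 and 60.9 FPKM. In mice, loss of Tekt2 or of Tekt4 impairs sperm motility. Labelled PaSC was 4.31 times labelled L/ZSC for Tekt4 and 4.65 times for Tekt2.

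Tekt3 was at 51.3, 3.93, 81.8 and 156 FPKM in the order of stages, and Tekt5, found in sperm tails, at 16.4, 1.78, 27.6 and 58.9 FPKM. Labelled PaSC was 1.91 and 2.13 times labelled L/ZSC for these genes. Tekt1 was the most abundant tektin in every library, at 174 FPKM under the SG label, 18.6 under PlpSC, 286 under L/ZSC and 401 under PaSC, and its ratio of 1.40 at the last step did not pass 1.5. Each of the 5 tektins had its highest value in labelled PaSC. Their median difference from labelled L/ZSC was 1.08, while the inner arm heavy chains had a median of -0.20.

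Start site windows were found for 36 of the 41 genes in a RefSeq table on GRCm38.p6, from 250 bases before to 50 after each start. The core of the X-box, GTTGCC on either strand, was present in 13 of the 36, or 36.1%, and in 14.1% of 27025 genes. The cyclic AMP response element TGACGTCA was present in 3 of the 36, Dnah6, Spag4 and Spag6l, or 8.33%, and in 2.03% of all. For MYB, CCGTTA was present in 3 of the 36 and 3.15% of all, and CAGTTG in 11 of the 36 and 15.4% of all. Dnah7a, Dnah7b and Dnah7c are copies of each other, so these genes are not independent. In Dnaic2 and in Dnah7a and Dnah7b the X-box core overlaps CAGTTG. A match is a string of letters and not a bound site.

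The windows of 3 genes show X-box cores that lie outside annotated exons, with GTTGCC or its complement GGCAAC in capitals and the rest in lower case, 5′ to 3′ along the gene. The window of Tekt2, on the minus strand at chr4:126325689-126325808, ends at the base before the start site and holds 2 X-box cores. That of Dnaic2, on the plus strand at chr11:114727288-114727407, ends 12 bases before the start site used and holds 1. It lies within the RefSeq span of the gene, 114721341 to 114757889. That of Spag16, on the plus strand at chr1:69826752-69826871, ends 99 bases before the start site and holds 1 whole core. A further core of Spag16, which begins 103 bases before the start site, is cut by the end of this window and stands in lower case.
Tekt2: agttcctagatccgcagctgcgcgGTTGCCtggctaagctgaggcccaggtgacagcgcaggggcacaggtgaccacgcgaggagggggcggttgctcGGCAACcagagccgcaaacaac
Dnaic2: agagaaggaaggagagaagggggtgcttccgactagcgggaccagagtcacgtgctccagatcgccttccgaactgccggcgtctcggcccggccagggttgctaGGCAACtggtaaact
Spag16: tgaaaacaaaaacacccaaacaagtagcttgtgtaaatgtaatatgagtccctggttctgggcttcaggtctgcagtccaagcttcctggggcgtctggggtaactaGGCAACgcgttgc
Between labelled PaSC and labelled L/ZSC the ratio was 4.65 for Tekt2, 1.84 for Dnaic2 and 1.25 for Spag16. The core was present in 4 of the 9 genes called higher at that step and in 9 of the other 27 genes with a window.

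The remaining Rsph genes included the highest value of the 41 genes. Rsph1 (chromosome 17, 31255019 to 31277296), a spoke head protein with MORN repeats, was at 940 FPKM under the SG label, 171 under PlpSC, 1381 under L/ZSC and 1043 under PaSC. Rsph9, another spoke head protein, was at 127, 14.6, 218 and 259 FPKM. Rsph14 was the lowest of the Rsph genes that passed 0.5 FPKM, at 7.09, 0.567, 12.3 and 30.6 FPKM. It was the only Rsph gene over 1.5 times higher in labelled PaSC than in labelled L/ZSC, at 2.49 times.

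Rsph3a and Rsph3b, stalk protein genes at separate places on chromosome 17, are near-identical and their split is uncertain. Rsph3a was at 122, 19.1, 194 and 172 FPKM and Rsph3b at 64.8, 13.1, 98.4 and 87.1 FPKM in the order of stages. Rsph3a was 1.46 to 1.97 times as high as Rsph3b.

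Central apparatus genes of the Spag series encode proteins of the central pair. Spag16 was at 98.7 FPKM under the SG label, 13.9 under PlpSC, 173 under L/ZSC and 217 under PaSC. Spag17 was at 43.99, 4.45, 53.4 and 57.1 FPKM. Both were highest in labelled PaSC by less than 1.5 times over labelled L/ZSC.

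Spag6 and Spag6l are related genes with unlike levels. Spag6l was at 228, 19.4, 357 and 336 FPKM in the order of stages, a pattern like that of the heavy chains. Spag6 was at 1.54 FPKM under the SG label, 0.881 under PlpSC, 11.04 under L/ZSC and 139 under PaSC, so labelled PaSC was 12.6 times labelled L/ZSC. The ratio of Spag6l to Spag6 was 148, 22.0, 32.4 and 2.42 in the same order. RefSeq places Spag6 on chromosome 2 and Spag6l on chromosome 16 but gives each as an older name of the other, so the gene behind each row of the table is not settled.

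The other Spag genes share a name, sperm-associated antigen, and no structure, and the label of an axonemal set fits them only in part. Spag1, a cytoplasmic factor in the assembly of dynein arms, was at 40.3 FPKM under the SG label, 6.90 under PlpSC, 56.05 under L/ZSC and 54.7 under PaSC. Spag8 was at 43.8, 5.57, 73.4 and 83.4 FPKM. Both stood like the axonemal genes.

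Spag4, a SUN domain protein of the spermatid nuclear envelope, had the largest difference between labelled PaSC and labelled L/ZSC, 19.2 times. It was at 1.22 FPKM under the SG label, 3.14 under PlpSC, 7.14 under L/ZSC and 137 under PaSC. It was also the single gene called higher in labelled PlpSC than in labelled SG.

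Spag5, Spag7 and Spag9 varied least among the Spag genes above 5 FPKM. Spag5, a protein of the mitotic spindle, was at 76.7, 35.2, 91.3 and 84.1 FPKM in the order of stages. Spag7 was at 28.8, 19.2, 29.1 and 39.8 FPKM. Spag9, a scaffold of kinase signaling and of motor transport along microtubules, was at 34.3, 38.4, 26.7 and 25.7 FPKM and was the only one of the 36 genes highest in labelled PlpSC. The defensin-like genes Spag11a and Spag11b, similar copies known from the epididymis whose split is uncertain, stayed at or below 0.209 and 0.035 FPKM and were each listed at 0 in at least 1 library.

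Counted over the 36 genes, 21 were highest in labelled PaSC (27.4% of all genes), 10 in labelled L/ZSC (15.1%), 4 in labelled SG (16.3%) and 1 in labelled PlpSC (41.3%). Dnah9, which passed the minimum only through labelled PaSC, is among the 21, and with a minimum of 1 FPKM 20 were highest there. Without labelled SG, 21 were highest in labelled PaSC (28.7% of all genes), 14 in labelled L/ZSC (20.1%) and 1 in labelled PlpSC (51.1%). The 4 genes highest in labelled SG were Dnah2, Dnah7b, Dnah8 and Dnal1, each by 1.10 times or less over the next library.

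The 9 genes more than 1.5 times higher in labelled PaSC than in labelled L/ZSC were Spag4, Spag6, Dnah9, Tekt2, Tekt4, Rsph14, Tekt5, Tekt3 and Dnaic2, in falling order of the ratio. Dnah9 passed the minimum only through labelled PaSC, and with a minimum of 1 FPKM the count was 8. Spermatid markers were higher in that library as well, all 16 by more than 1.5 times with a median difference of 4.70. Of all genes 24.9% were higher at this step. Tnp1, a transition protein of elongating spermatids, was at 4407 FPKM in labelled PaSC, against 29.5 in labelled L/ZSC. All 6 Leydig cell markers were also higher in labelled PaSC, with sums of 2130 FPKM, against 49.3 FPKM in labelled L/ZSC. Most of both sums was Insl3, at 1834 FPKM in labelled PaSC and 31.6 FPKM in labelled L/ZSC. In such bulk RNA, fewer cells of a type and less RNA per cell cannot be told apart, and the part of spermatids in these 9 ratios was not tested.

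Markers moved with the low values in labelled PlpSC too. The 11 pachytene markers outside the set summed to 841 FPKM in labelled PlpSC, against 5964 in labelled SG, and to 9030 FPKM in labelled L/ZSC. Of these sums Ldhc alone was 354, 3409 and 5468 FPKM. Of the 11, 10 were over 1.5 times higher in labelled L/ZSC than in labelled PlpSC (30.7% of all genes), with a median difference of 3.17. The 36 genes described here had 3.39 at this step, and the 6 Spag genes outside the central apparatus 1.22. The 10 markers of meiotic entry and early prophase summed to 1454 FPKM in labelled PlpSC, against 520 FPKM in labelled SG. Macrophage markers, 7 of 7 highest in labelled PlpSC (41.3% of all genes), summed to 268 FPKM there, against 16.1 FPKM in labelled SG. Leydig cell markers summed to 717 FPKM in labelled PlpSC, against 33.7 FPKM in labelled SG, and of these sums Insl3 alone was 632 and 17.7 FPKM. The 12 Sertoli cell markers summed to 1394 FPKM under the SG label, 700.0 under PlpSC, 369 under L/ZSC and 103 under PaSC. Their part in the values described here was not tested.

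Other axonemal genes, listed by the structure they belong to, stood like the dynein, tektin and spoke genes. More than 1.5 times higher in labelled L/ZSC than in labelled PlpSC were 14 of 14 dynein arm assembly factors, 5 of 5 genes of the outer arm docking complex, 10 of 10 genes of the nexin-dynein regulatory complex and the doublet ruler, and 8 of 8 further central apparatus genes. Their medians were 2.92, 3.14, 3.32 and 3.01. At this step 30.7% of all genes were higher and 45.4% lower, which is the background for each of these lists. Zmynd10, which acts in the folding of dynein arms, was at 293 FPKM under the SG label, 32.4 under PlpSC, 442 under L/ZSC and 358 under PaSC. Of 13 doublet proteins 11 were higher and 1 lower, with a median of 2.86.

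Further radial spoke subunits were higher in labelled L/ZSC than in labelled PlpSC in 9 of 10 cases (30.7% of all genes), with a median of 3.64. The exception was Dydc2, at 0.098 FPKM in labelled L/ZSC, against 0.234 in labelled PlpSC. In labelled PaSC 7 of 10, Dydc2 among them, were higher than in labelled L/ZSC (24.9% of all genes), with a median of 1.10. Ropn1l, an anchor of sperm signaling, was at 802, 95.01, 1127 and 1438 FPKM in the order of stages. Its relative Ropn1 was at 0.923, 0.079, 14.9 and 283 FPKM. Dnajb13, a co-chaperone in the spoke, was at 50.4, 5.12, 77.3 and 211 FPKM.

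Lists of transport genes shared with other cells had smaller medians at this step. Cytoplasmic dynein and dynactin genes were higher in labelled L/ZSC than in labelled PlpSC in 12 of 20 cases and lower in 3, with a median of 0.80. Of all genes 30.7% were higher and 45.4% lower between these libraries. Dync1h1, the cytoplasmic heavy chain, was at 174 FPKM under the SG label, 94.3 under PlpSC, 160.0 under L/ZSC and 159 under PaSC. Intraflagellar transport genes, which carry cargo during growth of cilia, were higher in 18 of 21 cases, with a median of 1.57. Among 10 arm subunits outside the set, 6 were higher in labelled L/ZSC than in labelled PlpSC and 3 were lower, with a median of 2.35. The light chain genes Dynlt1b, at 605 FPKM in labelled L/ZSC against 123 in labelled PlpSC, Dynlrb2, at 121 against 10.46, and Tctex1d2, at 281 against 52.7, were among the higher ones. Dynll1 was at 142 FPKM in labelled L/ZSC, against 145 in labelled PlpSC. The 3 lower ones were also light chain genes, Dynlt3 at 3.61 against 28.3 FPKM, Dynlrb1 at 11.8 against 58.3 FPKM and Dynll2 at 15.4 against 42.2 FPKM.

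**Figure D4:**
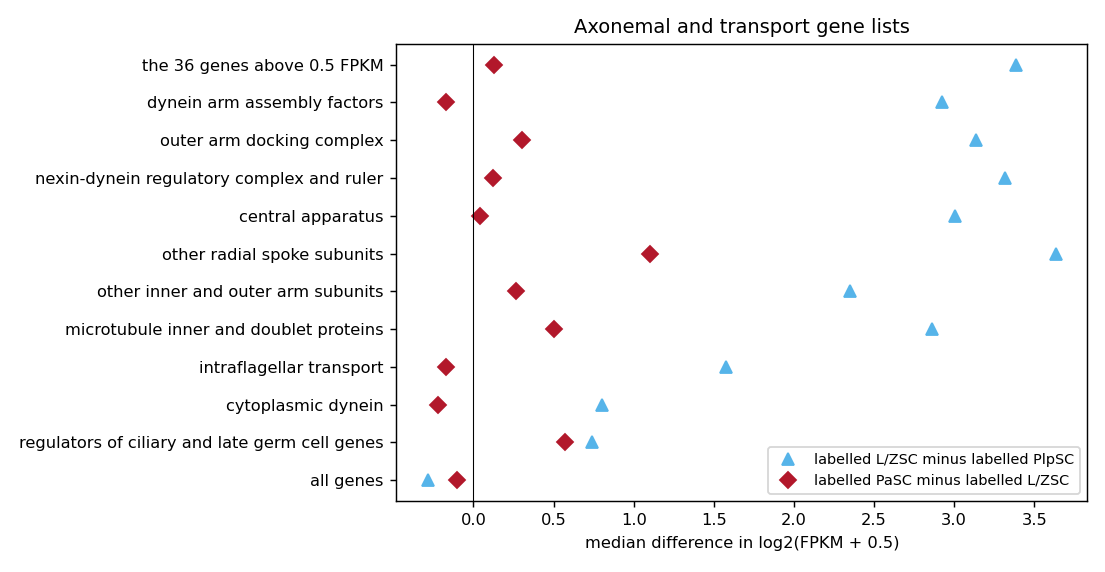
Median difference in log2(FPKM + 0.5) of the 36 genes, of 10 lists of related genes and of all genes, for labelled L/ZSC minus labelled PlpSC (triangles) and labelled PaSC minus labelled L/ZSC (diamonds). Axonemal lists have triangles between 2.35 and 3.64, intraflagellar transport stands at 1.57, cytoplasmic dynein at 0.80 and all genes at -0.29.

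Among regulators of ciliary and late germ cell genes, 11 reached 0.5 FPKM. In labelled L/ZSC 6 were higher than in labelled PlpSC (30.7% of all genes) and 3 were lower (45.4%), with a median of 0.74. The RFX factors, which bind the X-box of ciliary genes, went both ways. Rfx2, needed for spermatid development in mice, was at 84.3 FPKM under the SG label, 13.1 under PlpSC, 95.7 under L/ZSC and 114 under PaSC. Rfx4 was at 30.6, 4.34, 41.5 and 34.3 FPKM. The 3 regulators called lower were also RFX factors, Rfx1 at 2.89 FPKM in labelled L/ZSC against 4.90 in labelled PlpSC, Rfx3 at 1.13 against 2.81 and Rfx7 at 3.68 against 7.71. With equal FPKM totals Rfx1 and Rfx7 turned to ratios of 1.36 and 1.10. Mybl1, a regulator of pachytene genes, was at 41.4, 29.4, 41.1 and 34.2 FPKM, and did not pass 1.5 times between labelled L/ZSC and labelled PlpSC.

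All 41 symbols had a place in the RefSeq table, and 11 genes overlap another protein-coding gene, among them Dnah17 with Pgs1, Dnali1 with Gnl2, Rsph1 with Ubash3a and Spag8 with Npr2. The libraries were made with a directional kit and TopHat was run at its defaults, but whether the counting used strand is not given in the sources used here, so reads of such pairs may not be told apart. None of the tektins overlaps a coding gene.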

How the data were processed

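RNA depleted of ribosomal RNA was sequenced from 1 library per stage. The deposited FPKM, which the authors computed with Cuffdiff over RefSeq genes after a default TopHat alignment to mm10, were used unchanged. Tool versions, and whether libraries were scaled to each other, were not given in the sources used here. Columns were matched to samples by title, and 0 sample columns were left unused.

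Genes were selected by symbol, and 0.5 FPKM in at least 1 library was required (16652 genes). Calls used ratios over 1.5, following the study's methods, and a gene listed at 0 was called where the other library reached 0.5 FPKM. Medians used a pseudocount of 0.5. With 1 library per stage no test was run. Genes at 5 FPKM or more were named with all 4 values, and genes of other lists outside the highest 4 of their list were chosen after their values were seen. Members and lists were chosen with earlier results of these data known. In values under 0.06 FPKM, 30.5% to 38.2% of genes shared the most common ratio between libraries within 0.075 on the log2 scale, so whole reads were not recovered. The calling procedure was tested on simulated data. Python 3.11.15, numpy 2.4.6, pandas 2.3.3 and matplotlib 3.10.9 were used. Alternatives were pseudocounts of 0.1 and 1, no filter, minimums of 1 and 5 FPKM, a fold of 2, scalings, sets without Spag genes or without genes listed at 0, and leaving out labelled SG.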

Additional observations from a re-analysis of the deposited data

How the results depend on the processing

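No paired analysis was possible because each stage has 1 library. A count is called moved here where it changed by over 1.5 times. A median, which is on the log2 scale, is called moved where it shifted by the log2 of 1.5 or more. After scaling all 4 libraries to an equal FPKM total, the median of the 36 genes was -3.93 for labelled PlpSC minus labelled SG and 4.44 for labelled L/ZSC minus labelled PlpSC, against medians of all genes of -1.03 and 0.56. No gene was then higher in labelled PlpSC (0), lower in labelled L/ZSC (0) or highest in labelled PlpSC (0), 2 were highest in labelled L/ZSC, and 15 were higher in labelled PaSC than in labelled L/ZSC. At the step to labelled L/ZSC the medians became 3.95 for dynein arm assembly factors, 4.23 for the docking complex, 4.45 for the nexin-dynein regulatory complex, 3.97 for the central apparatus, 4.64 for radial spoke subunits, 3.54 for arm subunits, 4.01 for doublet proteins, 2.70 for intraflagellar transport, 1.99 for cytoplasmic dynein and 1.84 for regulators. With the sum taken without short RNAs, 2 genes were lower in labelled L/ZSC than in labelled PlpSC and 2 lower in labelled PaSC than in labelled SG. Median ratio scaling left 0 genes highest in labelled SG. Without a filter 2 genes were higher in labelled PlpSC than in labelled SG, 1 was lower in labelled PaSC than in labelled L/ZSC and 2 were highest in labelled PlpSC. With a minimum of 1 or 5 FPKM, 0 were lower in labelled L/ZSC than in labelled PlpSC. Without the Spag genes 0 were higher in labelled PlpSC or highest there. A pseudocount of 0.1 put the docking complex at 3.77. A further check, in part added after seeing the data, covered the genes named here that reached 0.5 FPKM, without Cyp2s1. Equal FPKM totals turned the called plain ratio of 6 of them. For labelled L/ZSC over labelled PlpSC these were Dnah9 (1.12), Rfx1 (1.36) and Rfx7 (1.10). For labelled PlpSC over labelled SG they were Dynlrb1 (0.905), Rfx3 (0.596) and Tnp1 (0.612). The log2 differences became 0.37 for Rfx1, 0.12 for Rfx7 and -0.14 for Dynlrb1. The other scalings turned 0.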
